A study of Arabidopsis thaliana with 15 samples.

Results

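Loss of the DNA demethylases ROS1, DML2 and DML3 was examined in Arabidopsis thaliana plants that already carried a mutant allele of the related gene DME. The comparison set the 3 drdd libraries (lettered B, C and D in the labels) against the 4 dme libraries (A, B, C and D), which are 7 of the 15 RNA-seq libraries of the study. drdd carries dme-2, ros1-3, dml2-1 and dml3-1, and dme carries dme-2 with the other 3 genes intact. Of the other 8 libraries, 4 are rdd, with ros1-3, dml2-1 and dml3-1, and 4 are WT, segregants with no mutant allele of these genes. Every genotype carries pAGL61:DME, a transgene that drives DME from the promoter of AGL61, a gene expressed in the central cell of the ovule, so that the loss of DME in drdd and dme is one of plants with this transgene. Each library came from polyadenylated RNA of the fifth rosette leaf at day 21, grown in long days of 16 h light at 22 °C and 50% relative humidity.

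DNA methylation at cytosines is copied after replication by methyltransferases and is added anew by RNA-directed DNA methylation. DME, ROS1, DML2 and DML3 are DNA glycosylases that cut methylated cytosine out of DNA, after which base excision repair puts an unmethylated cytosine in its place. DME is best known for its role in the central cell before fertilisation, and ROS1 for keeping methylation off genes and the edges of transposons in leaves and seedlings. Because ROS1, DML2 and DML3 are mutated together in drdd, effects of the single genes cannot be told apart here.

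The 7 libraries held from 9639591 counts assigned to genes (drdd C) to 17958747 (drdd B). Levels are given as CPM, counts per gene scaled to the library size after TMM normalization. Values of drdd are in the order B, C, D and values of dme in the order A, B, C, D. Whether the libraries of a genotype are separate plants is not stated in the labels; p-values reflect only how far these libraries differ, which may be technical. Defining leaf markers were present: summed CAB1, CAB2, CAB3, RBCS1A and RCA lay at 30250 to 39460 CPM in drdd and at 43060 to 49790 CPM in dme, without overlap. Of 6 markers of shoot meristem and floral organs, STM, WUS and CLV3 were at 0 in both groups, and all 6 summed to at most 0.462 CPM. Of 7 markers of seed, pollen and root, CRU3, OLEO1, PPME1 and EXPA7 were at 0 in both groups, and all 7 summed to at most 0.327 CPM. GL1, 1 of 5 markers of trichomes and epidermis, was also at 0 in both groups. drdd C and dme C stood apart along the second principal component of all 15 libraries, at -61.65 and -57.24, against -17.59 and -9.73 in drdd B and D and 8.85 to 31.68 in the other dme libraries. The 24 tested genes of rapid wound and touch responses were also highest in these libraries, with a mean log2 CPM of 4.04, 5.85 and 3.13 in drdd and of 3.19, 3.64, 6.56 and 2.80 in dme.

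Transcripts of 2 of the 3 genes mutated in drdd alone were lower than in dme. DML2 had 11.3, 8.85 and 6.78 CPM in drdd B, C and D, against 26.5, 23.9, 28.1 and 28.1 CPM in dme A, B, C and D. All drdd libraries lay below all dme libraries (log2 fold change -1.56 ± 0.22, adjusted p = 0.0018, edgeR quasi-likelihood test over 18598 genes; ± gives the SE throughout). DML3 had 3.80, 2.56 and 3.05 CPM in drdd, against 5.83, 8.34, 4.997 and 9.10 CPM in dme, also without overlap (log2 fold change -1.16 ± 0.28, adjusted p = 0.047). The call of DML3 was lost without dme A, dme B, dme D, drdd B, drdd C or drdd D (adjusted p up to 0.205). ROS1 had 57.97, 67.2 and 60.4 CPM in drdd, against 101, 62.6, 106 and 86.8 CPM in dme, and its groups overlapped through drdd C and dme B (log2 fold change -0.53 ± 0.16, adjusted p = 0.119). It was called without dme B (adjusted p = 0.0373) and with DESeq2 (adjusted p = 0.0436). Its mRNA was therefore present in drdd, and counts per gene do not show whether the transcript spans the whole coding region. DME itself, mutant in both groups, had 77.6, 75.3 and 68.7 CPM in drdd, against 74.7, 61.1, 60.6 and 54.9 CPM in dme (log2 fold change 0.23 ± 0.14, adjusted p = 0.424). Across the genotypes, DML2 averaged 6.96 ± 2.18 CPM in rdd and 26.4 ± 4.41 CPM in WT, DML3 3.23 ± 0.867 CPM in rdd and 6.51 ± 1.39 CPM in WT and ROS1 58.5 ± 6.73 CPM in rdd and 81.2 ± 10.9 CPM in WT (SD, n = 4 each), so the low levels of DML2 and DML3 were met in both genotypes that carry their mutant alleles.

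**Figure D1:**
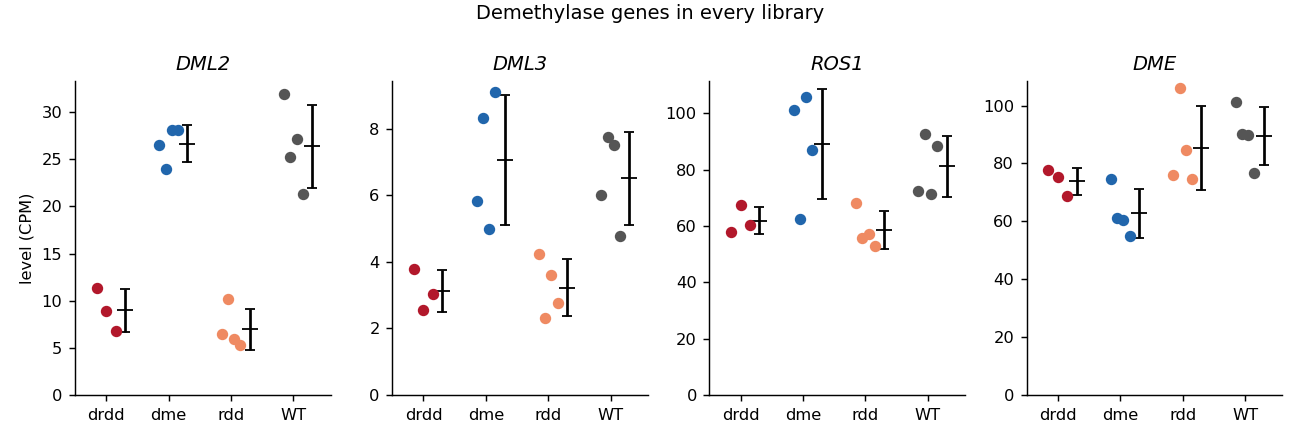
Level (CPM) of DML2, DML3, ROS1 and DME in each library of drdd, dme, rdd and WT; points are libraries, the bar beside them the mean and SD. DML2 lies at 6.78 to 11.3 CPM in drdd and at 23.9 to 28.1 CPM in dme, while ROS1 and DME overlap between those groups.

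Of the 18598 genes tested, 420 (2.26%) were called at an adjusted p under 0.05, 171 higher in drdd (0.919%) and 249 lower (1.34%). The called genes that fell changed by more at the extreme: 44 fell and 19 rose by 3 or more on the log2 scale, and 25 fell and 7 rose by 5 or more. The median change was 1.23 for the genes that rose and -0.88 for those that fell, and the smallest called changes were 0.38 and -0.34. In 413 of the 420 the drdd and dme libraries did not overlap in CPM, which was true of 14.4% of all tested genes. Of the called genes, 9 had no count in any drdd library and 1 had none in any dme library. Among all tested genes these numbers were 23 and 1. Protein-coding genes gave 168 of the rises and 230 of the falls (2.21% of 18003 tested), annotated pseudogenes 1 rise and 6 falls (3.74% of 187 tested) and noncoding RNA genes 2 rises and 13 falls (4.19% of 358 tested). The number of calls depended on single libraries: it was 127 without drdd C, 157 without drdd B, 188 without dme B, 226 without dme D and 95 without both drdd C and dme C. In none of these did a called gene change direction, and 67 of the 420 (24 higher, 43 lower) were called under each of the 14 alternative analyses.

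The largest falls were genes that were read in every dme library and were silent or nearly so in drdd. AT4G11000, which encodes an ankyrin repeat protein, had no count in any drdd library, against 7.73, 6.95, 16.01 and 12.5 CPM in dme A, B, C and D. With a floor of 3 counts over the group, its level was at least 143-fold lower in drdd (73.2-fold without drdd B, the deepest library; adjusted p = 0.00153). The pseudogene AT2G23330 likewise had no count in any drdd library, against 8.39, 6.62, 5.42 and 6.99 CPM in dme. It was at least 90.99-fold lower (46.5-fold without drdd B; adjusted p = 3.25e-05), and no drdd library held a read of it. The noncoding RNA gene AT2G24755 was at 0.0513, 0 and 0 CPM in drdd, against 16.99, 18.9, 13.8 and 17.5 CPM in dme, from 1 read in drdd, and the level in dme exceeded that in drdd 670.0-fold (95% counting interval 119.9 to 26500.0). AT3G09160, for an RNA-binding protein, had no count in any drdd library, against 2.11, 4.01, 5.25 and 7.50 CPM in dme, at least 62.6-fold lower (31.99-fold without drdd B; adjusted p = 0.000136). These 4 calls held whichever library was left out.

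A further 4 of the largest falls were likewise below or near 1 CPM in each drdd library. AT2G32160, for a protein of the S-adenosylmethionine-dependent methyltransferase superfamily, had 0.154, 0.590 and 0.393 CPM in drdd, against 101, 91.2, 109.9 and 168 CPM in dme. Each drdd library was below 1 CPM (log2 fold change -8.41 ± 0.63, adjusted p = 7.45e-06). Its neighbour AT2G32170, of the same superfamily, fell by 0.62 on the log2 scale, a call lost without drdd B (adjusted p = 0.058). AT2G33830, of the dormancy and auxin associated family, had 0.462, 1.08 and 0.885 CPM in drdd, against 149, 84.4, 117 and 124 CPM in dme, with every drdd value near 1 CPM (log2 fold change -7.27 ± 0.37, adjusted p = 5.05e-08). RLP34, a receptor-like protein with leucine-rich repeats, stood at 0.411, 0.197 and 0.786 CPM in drdd, against 78.1, 45.1, 74.4 and 97.7 CPM in dme (log2 fold change -7.31 ± 1.05, adjusted p = 0.00304). AT3G46370, a leucine-rich repeat protein kinase gene, was read once in drdd, with 0, 0.0983 and 0 CPM in drdd, against 4.38, 6.95, 5.25 and 6.99 CPM in dme, and its level in dme exceeded that in drdd 233-fold (95% counting interval 41.4 to 9223), or 119-fold without drdd B. AT2G32160, AT2G33830, RLP34 and AT3G46370 were called under each left-out library.

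The other falls among the 12 largest were genes of lower level in dme, and their calls rested on fewer reads. AT2G34655, of unknown function, had no count in any drdd library, against 0.656, 1.80, 7.37 and 6.15 CPM in dme, so that its dme values differed by a factor of over 10 among themselves. It was at least 53.01-fold lower (27.1-fold without drdd B), and the call was lost without dme B, dme C, dme D, drdd B, drdd C or drdd D (adjusted p up to 0.15). AT1G57850, a TIR domain gene, had no count in any drdd library, against 3.57, 0.817, 7.45 and 3.45 CPM in dme, at least 50.8-fold lower (25.9-fold without drdd B), and was no longer called without dme A, dme C, dme D, drdd B, drdd C or drdd D (adjusted p up to 0.125). The noncoding RNA gene AT2G22821 had no count in any drdd library, against 1.97, 2.21, 0.593 and 2.44 CPM in dme and was at least 23.9-fold lower (12.2-fold without drdd B); without that library its adjusted p was 0.0564. AT4G04223, another noncoding RNA gene, had no count in any drdd library, against 1.31, 0.245, 0.762 and 2.61 CPM in dme and was at least 16.4-fold lower (8.36-fold without drdd B, 10.3-fold without dme D), with no call without dme A, dme C, dme D, drdd B, drdd C or drdd D (adjusted p up to 0.146). In these 4 genes too, every dme library held reads and no drdd library did.

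**Figure D2:**
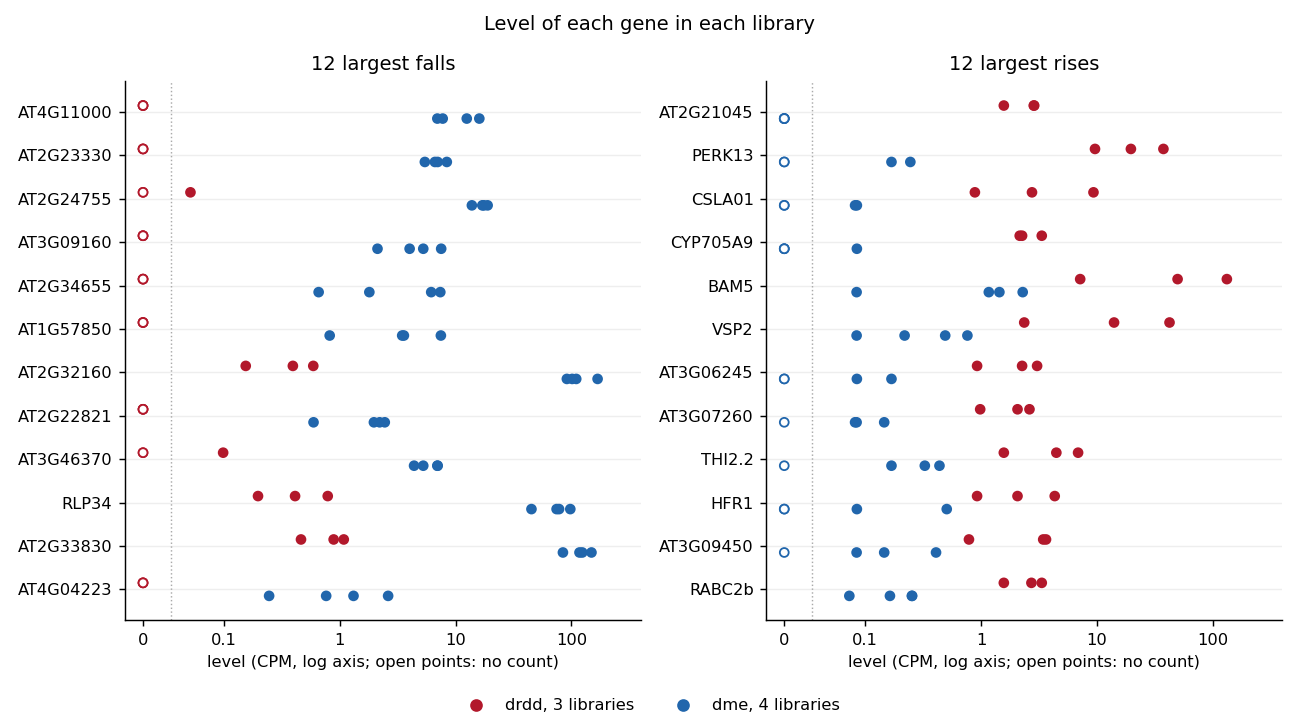
Level (CPM, log axis) of the 12 largest falls and 12 largest rises in each drdd and dme library; open points at 0 are libraries with no count. In every row the 3 drdd libraries lie on one side of the 4 dme libraries, because genes with overlap were left out by the choice. AT2G33830, for example, lies at 0.462 to 1.08 CPM in drdd and at 84.4 to 149 CPM in dme.

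Genes with the largest rises were absent or barely read in dme and had a low or moderate level in drdd. AT2G21045, which encodes a rhodanese-like protein, had 2.88, 2.85 and 1.57 CPM in drdd B, C and D, against no count in any dme library. Its level was at least 40.2-fold higher in drdd against a floor of 3 counts over the dme libraries (adjusted p = 0.00253). PERK13, a receptor-like kinase also named root hair specific 10, had 37.5, 19.7 and 9.63 CPM in drdd, against 0, 0.245, 0 and 0.169 CPM in dme, with a spread among drdd libraries of nearly 4 times (log2 fold change 7.65 ± 0.81, adjusted p = 0.000139; 7.02 without drdd B and 8.47 without dme B). CYP705A9, a cytochrome P450, had 2.16, 3.34 and 2.26 CPM in drdd, against 0, 0, 0.0847 and 0 CPM in dme, and drdd exceeded dme, which held 1 read, 123-fold (95% counting interval 21.6 to 4922). These 3 calls held under each left-out library.

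Other rises were of genes that stayed at low levels in drdd as well. AT3G07260, for a protein with a forkhead-associated domain, had 2.62, 2.06 and 0.983 CPM in drdd, against 0.146, 0.0817, 0 and 0.0843 CPM in dme (log2 fold change 4.42 ± 0.61, adjusted p = 0.0015). RABC2b, a small GTPase of membrane traffic, had 2.72, 3.34 and 1.57 CPM in drdd, against 0.0729, 0.163, 0.254 and 0.253 CPM in dme (log2 fold change 3.73 ± 0.54, adjusted p = 0.00193). The noncoding RNA gene AT3G06245 was at 0.924, 2.26 and 3.05 CPM in drdd, against 0, 0, 0.0847 and 0.169 CPM in dme, and drdd exceeded dme, with 3 reads, 29.9-fold (95% counting interval 9.83 to 148), or 68.3-fold without dme D. AT3G09450, annotated as a fusaric acid resistance family member, had 3.44, 3.64 and 0.786 CPM in drdd, against 0.146, 0.409, 0 and 0.0843 CPM in dme (log2 fold change 3.96 ± 0.67, adjusted p = 0.0069; 4.91 without dme B). The drdd libraries differed more among themselves for CSLA01, a cellulose synthase-like gene, at 9.35, 2.75 and 0.885 CPM in drdd, against 0, 0.0817, 0.0847 and 0 CPM in dme. drdd exceeded dme 136-fold (95% counting interval 37.3 to 1134), mostly through drdd B. Without that library the ratio was 45.1-fold, and the call was lost without drdd B (adjusted p = 0.0505). THI2.2, for a thionin, a small antimicrobial peptide, had 4.47, 6.88 and 1.57 CPM in drdd, against 0.438, 0.327, 0 and 0.169 CPM in dme (log2 fold change 4.12 ± 0.91, adjusted p = 0.0327), a call lost without dme A, dme B, dme C, dme D, drdd B or drdd C (adjusted p up to 0.14). The other 4 genes of this paragraph were called under each left-out library.

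Among genes of at least 20 CPM in the higher group, the lowest adjusted p-values again belonged to falls. CYP706A6, a cytochrome P450, had 3.08, 3.44 and 5.11 CPM in drdd B, C and D, against 184, 189.8, 128 and 205 CPM in dme A, B, C and D. The drdd and dme libraries were separated by a factor of over 20 (log2 fold change -5.53 ± 0.28, adjusted p = 5.05e-08). AT2G40960, for a protein with an R3H domain that binds single-stranded nucleic acid, had 3.80, 4.82 and 4.82 CPM in drdd, against 26.3, 25.4, 29.5 and 33.8 CPM in dme (log2 fold change -2.69 ± 0.14, adjusted p = 5.05e-08). AT2G21860, related to violaxanthin de-epoxidase, had 11.1, 11.2 and 16.7 CPM in drdd, against 72.7, 89.9, 81.99 and 72.97 CPM in dme (log2 fold change -2.61 ± 0.17, adjusted p = 7.12e-07). In both, the values within a group were close together and the groups lay far apart.

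AT5G35480, of unknown function, was at 1.85, 2.16 and 0.885 CPM in drdd, against 25.2, 31.2, 38.7 and 27.8 CPM in dme (log2 fold change -4.21 ± 0.28, adjusted p = 8.83e-07), and its neighbour MRU1, named for its response in the mto1 mutant, at 0.770, 0.885 and 1.38 CPM in drdd, against 7.88, 17.2, 11.9 and 13.4 CPM in dme (log2 fold change -3.67 ± 0.33, adjusted p = 2.59e-05). The noncoding RNA genes AT4G13495 and AT2G23672 also fell. AT4G13495 had 67.9, 82.2 and 104 CPM in drdd, against 492, 744, 586 and 633 CPM in dme (log2 fold change -2.86 ± 0.20, adjusted p = 1.58e-06). AT2G23672 had 5.34, 6.10 and 6.98 CPM in drdd, against 26.6, 26.7, 20.5 and 32.4 CPM in dme (log2 fold change -2.12 ± 0.16, adjusted p = 2.91e-06). Each of the genes of this group was called whichever library was left out. AT4G13495 is the most abundant of the largest or most certain falls, at 84.6 ± 18.1 CPM in drdd and 614 ± 105 CPM in dme (SD, n = 3 and 4).

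The DNA methylation machinery was nearly level between the genotypes. Of 35 tested genes for methyltransferases and RNA-directed DNA methylation, 1 was higher (2.86%, beside 2.26% of all tested genes) and none was lower. The median log2 fold change was 0.04, beside 0.00 over all tested genes. The member that rose was AGO6, an Argonaute that binds small RNAs in this pathway, at 3.13, 5.70 and 4.23 CPM in drdd, against 1.53, 1.96, 2.03 and 1.69 CPM in dme (log2 fold change 1.26 ± 0.31, adjusted p = 0.0484). Its drdd libraries all lay above its dme libraries, but the call was lost without any 1 of the 7 libraries (adjusted p up to 0.261). MET1, which copies CG methylation, averaged 68.9 ± 20.3 CPM in drdd and 53.03 ± 12.5 CPM in dme (log2 fold change 0.37 ± 0.22, adjusted p = 0.415). IBM1, a histone demethylase gene whose transcript depends on methylation within it, averaged 30.00 ± 2.91 CPM in drdd and 32.5 ± 4.74 CPM in dme (log2 fold change -0.12 ± 0.14, adjusted p = 0.728). None of 16 tested partners of the demethylases and base excision repair enzymes was called (median -0.04).

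Most genes that are known to be kept silent by DNA methylation were at or near 0 in both groups, and only 1 of 12 passed the count filter. This was QQS, an orphan gene that affects starch content and is known to vary with methylation between plants, at 0.0513, 0.0983 and 0 CPM in drdd, against 2.63, 6.21, 5.17 and 9.94 CPM in dme. Its level in dme exceeded that in drdd 117-fold (95% counting interval 32.03 to 969), and without drdd B the adjusted p was 0.058. In rdd it averaged 1.01 ± 0.424 CPM and in WT 9.51 ± 8.95 CPM (SD, n = 4 each). FWA, DOGL4, HDG3, HDG8 and HDG9 had no count in any library of either group. RMG1, an immune receptor gene, averaged 0 in drdd and 0.323 CPM in dme, too low to be tested.

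Of the flowering genes, 7.69% of floral promoters and 0% of floral repressors and FLC regulators were called, beside 2.26% of all tested genes. FLC, the repressor of flowering that vernalization silences, had no count in any drdd library, against 0.948, 3.19, 0.678 and 0.253 CPM in dme. That is at least 16.8-fold lower in drdd (8.59-fold without drdd B, 8.31-fold without dme B), but it was not called (adjusted p = 0.214), except with DESeq2 (adjusted p = 0.00345). Most of its dme reads came from dme B. MAF5, a relative of FLC, had 62.1, 49.6 and 48.9 CPM in drdd, against 48.7, 40.2, 25.4 and 28.9 CPM in dme, with all drdd values above all dme values by a small margin (log2 fold change 0.58 ± 0.31, adjusted p = 0.372). Of 17 tested floral repressors none was called (median -0.07), nor was any of 26 regulators of FLC (median -0.03). Of 13 floral promoters 1 rose (median 0.31), which was GI, described with the clock. FT, the mobile flowering signal, averaged 16.1 ± 13.9 CPM in drdd and 6.90 ± 4.82 CPM in dme (log2 fold change 1.24 ± 0.69, adjusted p = 0.4), and SPL9, which promotes the adult phase, 7.40 ± 2.27 CPM in drdd and 3.44 ± 1.07 CPM in dme (log2 fold change 1.09 ± 0.33, adjusted p = 0.105).

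Of 17 tested genes of the stomatal lineage, 4 were higher and 1 was lower in drdd (29.4%, beside 2.26% of all genes; median 0.42). The lineage starts with asymmetric divisions of epidermal cells and ends in guard cell pairs. POLAR, a scaffold that marks one side of dividing lineage cells, had 1.34, 3.93 and 4.52 CPM in drdd, against 0.729, 0.245, 0.678 and 0.169 CPM in dme (log2 fold change 2.79 ± 0.59, adjusted p = 0.0245). TMM, a receptor-like protein that senses spacing peptides, had 12.99, 17.99 and 30.1 CPM in drdd, against 5.83, 1.88, 4.57 and 1.26 CPM in dme (log2 fold change 2.57 ± 0.57, adjusted p = 0.0349). Its partner ERL1, a receptor kinase, had 2.36, 5.31 and 4.91 CPM in drdd, against 0.656, 0.736, 1.78 and 0.674 CPM in dme (log2 fold change 2.11 ± 0.49, adjusted p = 0.0389). BASL, another polarity protein, had 1.49, 3.74 and 4.82 CPM in drdd, against 0.0729, 0.409, 0.593 and 0.169 CPM in dme (log2 fold change 3.39 ± 0.82, adjusted p = 0.0459). In all 4 genes each drdd library exceeded each dme library.

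FAMA, the factor that ends divisions and starts guard cell fate, ran the other way, at 18.02, 24.8 and 13.4 CPM in drdd, against 36.9, 32.9, 40.2 and 28.1 CPM in dme (log2 fold change -0.88 ± 0.19, adjusted p = 0.0264). SPCH, which starts the lineage, averaged 3.80 ± 2.13 CPM in drdd and 0.448 ± 0.477 CPM in dme and missed the threshold (log2 fold change 3.02 ± 0.76, adjusted p = 0.0542). MUTE, which follows SPCH, averaged 1.36 ± 0.893 CPM in drdd and 0.198 ± 0.133 CPM in dme (log2 fold change 2.67 ± 0.98, adjusted p = 0.193). EPF2, a peptide that limits entry to the lineage and is known to be silenced where ROS1 is lost, averaged 0 in drdd and 0.084 CPM in dme and was not tested. The summed level of the 5 defining lineage markers was 17.56 to 46.1 CPM in drdd and 1.601 to 7.88 CPM in dme. That of 6 guard cell markers was 75.8 to 92.3 CPM in drdd and 70.3 to 101.9 CPM in dme. More lineage cells in the leaf and more RNA per cell cannot be told apart in such bulk RNA.

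No call of a lineage gene held under every left-out library. POLAR was lost without dme B, dme D, drdd C or drdd D (adjusted p up to 0.108), TMM without dme B, dme C, dme D, drdd B, drdd C or drdd D (adjusted p up to 0.102), ERL1 without dme A, dme B, dme D, drdd C or drdd D (adjusted p up to 0.17), BASL without dme A, dme B, dme D, drdd B, drdd C or drdd D (adjusted p up to 0.147) and FAMA without dme A, dme B, dme C, drdd B or drdd D (adjusted p up to 0.097). The number of members called higher fell to 0 without dme B, without dme D, without drdd C or without drdd D, and in a fit of the 7 libraries alone. In rdd against WT the list had no call, with a median of 0.78, and TMM averaged 9.76 ± 3.68 CPM in rdd and 1.61 ± 1.14 CPM in WT (SD, n = 4 each; log2 fold change 2.57 ± 0.58, adjusted p = 0.0535). Of 12 guard cell genes 1 was called (8.33%, beside 2.26% of all tested genes). It was TGG1, a myrosinase stored in myrosin cells and guard cells, at 2573 ± 183 CPM in drdd and 4226 ± 713 CPM in dme (log2 fold change -0.72 ± 0.14, adjusted p = 0.0191). TGG1 was no longer called without dme B, drdd B or drdd C (adjusted p up to 0.0845).

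Of 34 photosynthesis genes 4 fell and none rose (11.8%, beside 2.26% of all tested genes; median 0.03), and the 4 act in carbon fixation; no light-harvesting gene was called. RBCS2B, a Rubisco small subunit gene, averaged 3084 ± 887 CPM in drdd and 6523 ± 676 CPM in dme (SD, n = 3 and 4; log2 fold change -1.08 ± 0.20, adjusted p = 0.0123). RBCS1B beside it averaged 1948 ± 319.8 CPM in drdd and 3348 ± 542 CPM in dme (log2 fold change -0.78 ± 0.17, adjusted p = 0.0324). Rubisco small subunit genes are close copies, so that the split of reads between them is uncertain.

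GAPB, for a chloroplast dehydrogenase of the Calvin cycle, averaged 1929 ± 501 CPM in drdd and 3159 ± 265 CPM in dme (log2 fold change -0.71 ± 0.16, adjusted p = 0.0349). RCA, for Rubisco activase, averaged 5265 ± 1769.6 CPM in drdd and 9908 ± 1873 CPM in dme (log2 fold change -0.91 ± 0.22, adjusted p = 0.0448). In all 4 the drdd libraries lay below the dme libraries. GAPA and PRK, further Calvin cycle genes, had log2 fold changes of -0.53 and -0.51 and missed the threshold (adjusted p = 0.0639 and 0.0613). CAB3, for a light-harvesting protein, averaged 1249 ± 902 CPM in drdd and 445 ± 69.1 CPM in dme (log2 fold change 1.49 ± 0.39, adjusted p = 0.0632). Without drdd B or without drdd C none of the 4 calls remained. RBCS2B had an adjusted p up to 0.0827, RBCS1B up to 0.163, GAPB up to 0.174 and RCA up to 0.194; RBCS1B was also lost without dme A, B or C, and GAPB and RCA without dme A, B or D.

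The genes GOX1 and GOX2, neighbours that encode the photorespiratory enzyme glycolate oxidase, fell together and were singled out after their values were seen. GOX1 averaged 1338 ± 321 CPM in drdd and 2155 ± 314 CPM in dme (log2 fold change -0.69 ± 0.17, adjusted p = 0.0456), and GOX2 691 ± 121 CPM in drdd and 1060.2 ± 145 CPM in dme (log2 fold change -0.62 ± 0.14, adjusted p = 0.0326). Both calls were lost under several left-out libraries, GOX1 without dme A, dme B, dme C, dme D, drdd B or drdd C (adjusted p up to 0.211) and GOX2 without dme A, dme B, dme D, drdd B or drdd C (adjusted p up to 0.163).

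In the clock and light lists, calls went in both directions. GI, an evening gene that acts in the clock and in flowering, had 19.6, 49.1 and 15.4 CPM in drdd, against 9.77, 7.11, 9.23 and 6.15 CPM in dme (log2 fold change 1.79 ± 0.35, adjusted p = 0.0171). PRR7, a repressor of morning genes, had 35.3, 66.95 and 17.99 CPM in drdd, against 14.3, 13.7, 19.9 and 10.3 CPM in dme (log2 fold change 1.46 ± 0.32, adjusted p = 0.0329), with drdd D inside the dme range. ELF3, a part of the evening complex, had 83.1, 81.1 and 80.2 CPM in drdd, against 112, 104, 114 and 98.1 CPM in dme (log2 fold change -0.39 ± 0.08, adjusted p = 0.0209). GI was not called without dme B, dme D or drdd C (adjusted p up to 0.0827), PRR7 without dme A, dme B, dme D, drdd B or drdd C (adjusted p up to 0.176) and ELF3 without dme B, drdd B or drdd C (adjusted p up to 0.0877). The clock list of 20 had these 3 calls (15%, beside 2.26% of all tested genes) and a median of 0.03, and the morning gene LHY averaged 25.9 ± 13.3 CPM in drdd and 64.4 ± 53.3 CPM in dme (log2 fold change -1.31 ± 0.75, adjusted p = 0.413). drdd C was the highest library for GI and for PRR7, and it was also the drdd library with the highest touch and wound level; the part of this in the result was not tested.

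Of 30 genes of light and shade growth 2 rose and 1 fell (10%, beside 2.26% of all tested genes). The median was 0.30, and 0.19 without drdd C, with no call. PIF4, a factor that drives growth in shade and warmth, had 49.4, 76.9 and 40.5 CPM in drdd, against 23.1, 23.1, 21.6 and 12.1 CPM in dme (log2 fold change 1.47 ± 0.29, adjusted p = 0.0171). HFR1, which holds such factors back, had 0.924, 4.33 and 2.06 CPM in drdd, against 0, 0, 0.0847 and 0.506 CPM in dme (log2 fold change 3.98 ± 0.95, adjusted p = 0.0439; 6.05 without dme D). CRY1, a blue light receptor, had 111, 110.1 and 119.9 CPM in drdd, against 162, 206, 171 and 227 CPM in dme (log2 fold change -0.75 ± 0.15, adjusted p = 0.02). Each of these groups was without overlap. The calls were lost for PIF4 without drdd C (adjusted p = 0.107), for HFR1 without dme A, dme B, dme C, drdd B, drdd C or drdd D (adjusted p up to 0.211) and for CRY1 without dme B, dme D, drdd B or drdd C (adjusted p up to 0.0917).

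Jasmonate genes rose at some steps and not at others. Of 17 synthesis genes, AOC4 and JMT were higher and FAD8 lower (17.65%, beside 2.26% of all tested genes; median -0.01). AOC4, for allene oxide cyclase, had 51.2, 44.1 and 43.3 CPM in drdd, against 25.8, 26.6, 22.3 and 28.3 CPM in dme (log2 fold change 0.85 ± 0.11, adjusted p = 0.000759), called whichever library was left out. JMT, which methylates jasmonate, had 21.3, 13.5 and 8.36 CPM in drdd, against 2.33, 4.90, 1.19 and 3.45 CPM in dme (log2 fold change 2.28 ± 0.43, adjusted p = 0.0145), a call lost without drdd B (adjusted p = 0.0845). FAD8, a chloroplast desaturase that supplies linolenic acid, had 57.7, 59.8 and 73.2 CPM in drdd, against 133, 135, 133 and 119 CPM in dme (log2 fold change -1.03 ± 0.16, adjusted p = 0.00284).

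Of 23 jasmonate output genes 3 rose (13.0%, beside 2.26% of all tested genes). The median was 0.26, but -0.21 without drdd C, 0.08 without dme D and 0.76 without drdd D. BAM5, a beta-amylase, had 132, 49.7 and 7.18 CPM in drdd, against 1.17, 2.29, 1.44 and 0.0843 CPM in dme, with drdd libraries that differed by over 10 times (log2 fold change 5.66 ± 0.90, adjusted p = 0.00683; 4.48 without drdd B). VSP2 and VSP1, neighbouring genes for vegetative storage proteins, were uneven in the same way. VSP2 had 14.1, 42.4 and 2.36 CPM in drdd, against 0.219, 0.490, 0.762 and 0.0843 CPM in dme (log2 fold change 5.63 ± 1.03, adjusted p = 0.0144). VSP1 had 19.1, 49.1 and 0.590 CPM in drdd, against 0.0729, 1.14, 1.52 and 0 CPM in dme (log2 fold change 5.06 ± 1.21, adjusted p = 0.0482). For VSP1 the value of drdd D was inside the dme range. VSP2 was not called without drdd C (adjusted p = 0.0814) and VSP1 not without dme A, dme B, dme C, dme D, drdd B or drdd C (adjusted p up to 0.24). The VSP genes are near copies, so their split of reads is uncertain. None of 10 JAZ repressors was called (median 0.08).

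In the stress lists, the share called was 3.85% for abscisic acid, cold and drought and 4.17% for rapid wound and touch responses. It was 0% for salicylic acid defence and for immune receptors, beside 2.26% of all tested genes. In the list for abscisic acid, cold and drought, 23 of 26 tested genes had a positive change (median 1.00, beside 0.00 for all genes) but 1 was called (3.85%). The median was 0.46 without drdd C, with no call. This was RAB18, a dehydrin, at 45.6, 66.8 and 30.1 CPM in drdd, against 15.3, 12.8, 15.7 and 13.1 CPM in dme (log2 fold change 1.74 ± 0.31, adjusted p = 0.0111), which was lost without drdd C (adjusted p = 0.0732). LTI78, a cold and drought marker, averaged 359 ± 241 CPM in drdd and 80.2 ± 45.5 CPM in dme (log2 fold change 2.16 ± 0.65, adjusted p = 0.113). CBF3, a regulator of cold genes counted here with the touch responses, had 13.4, 27.04 and 10.3 CPM in drdd, against 4.45, 4.01, 3.73 and 1.60 CPM in dme (log2 fold change 2.29 ± 0.55, adjusted p = 0.0478) and was lost without dme A, dme B, dme C, dme D, drdd B or drdd C (adjusted p up to 0.24). It was the only call among the 24 tested genes of the wound and touch list, of which 10 had a positive and 14 a negative change (median -0.24). Of 30 salicylic acid defence genes 29 had a negative change (median -1.04, but -0.74 without dme C and -1.33 without drdd B) and none was called. PR1, the usual marker of this defence, averaged 0.401 ± 0.177 CPM in drdd and 19.7 ± 20.9 CPM in dme (log2 fold change -5.51 ± 2.41, adjusted p = 0.283). The mean log2 CPM of that list was 3.67, 2.96 and 2.28 in drdd and 4.28, 3.70, 4.94 and 4.18 in dme, so the groups did not overlap but came as close as 3.67 and 3.70. Among rdd libraries the same mean ran from 1.83 to 5.20 and among WT libraries from 2.29 to 5.37, a wider spread within a genotype. None of 30 immune receptor genes was called (28 negative, median -0.39, and -0.17 without dme C).

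Of 40 glucosinolate genes 1 was called (2.5%, beside 2.26% of all tested genes), and the median was 0.30, and 0.06 without drdd B. The called gene was ESM1, which acts in glucosinolate breakdown and fell. It had 13.9, 24.8 and 22.6 CPM in drdd, against 1221, 1401, 119 and 119 CPM in dme, so that the dme libraries themselves fell into a high pair, A and B, and a low pair, C and D. All drdd libraries lay below both pairs (log2 fold change -5.14 ± 0.93, adjusted p = 0.0145), and the call was lost without drdd B or drdd C (adjusted p up to 0.0774). The other genotypes had 112, 70.3, 188 and 127 CPM in rdd, against 1489.5, 2538, 2207 and 2653 CPM in WT, so that the low dme libraries were within the range of rdd. UGT78D1, a flavonol glycosyltransferase, fell as the single call of 12 flavonoid genes (8.33%, beside 2.26% of all tested genes). The median of that list was -0.42, and -0.21 without dme D. UGT78D1 had 7.29, 14.4 and 9.73 CPM in drdd, against 29.7, 23.9, 50.4 and 45.8 CPM in dme (log2 fold change -1.85 ± 0.39, adjusted p = 0.0258). The call was lost without dme C, dme D, drdd B, drdd C or drdd D (adjusted p up to 0.113). Of 20 root hair and cell wall growth genes, 10% were called, beside 2.26% of all tested genes. PERK13 rose and EXPA8, an expansin that loosens walls, fell, at 2.003, 7.28 and 5.11 CPM in drdd, against 34.2, 33.8, 43.5 and 51.1 CPM in dme (log2 fold change -3.13 ± 0.41, adjusted p = 0.00119).

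Of the 34 lists counted, 16 had no call, among them xylem and secondary wall genes (19 tested, 18 positive, median 0.91, and 0.46 without drdd C), cell cycle genes (33 tested, 30 positive, median 0.34, and 0.20 without dme D), heat, senescence, trichome and nutrient supply genes, and the reference genes (16 tested, median 0.05). Xylem marker levels stood at 72.2 to 163.9 CPM in drdd and at 34.2 to 95.5 CPM in dme, with overlap. In all, 32 of 604 tested genes in lists were called (5.30%, beside 2.26% of all tested genes), and the lists were chosen with earlier results known.

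The same 3 genes were lost in rdd with DME intact, and rdd against WT shares no library with drdd against dme. There 200 genes were called (1.08%), 77 of them higher (0.414%) and 123 lower (0.661%). Called in both with the same direction were 80 genes (27 higher, 53 lower), 19.0% of the 420 calls and 40% of the 200. This number was 52 without drdd C. Of the 420 genes, 335 (79.8%) had the same sign in rdd against WT, as did 61.0% of all tested genes. Across the called genes the changes had a Pearson correlation of 0.82, and across all tested genes of 0.58; genes are not independent replicates, and the 420 were chosen by 1 of the 2 changes.

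The shared calls included several of the largest changes described above. AT2G32160 had 0.722, 0.105, 0.176 and 0.172 CPM in rdd, against 138, 44.2, 103 and 56.7 CPM in WT (log2 fold change -8.22 ± 0.56, adjusted p = 3.46e-06), and AT2G24755 averaged 0.0697 ± 0.0472 CPM in rdd and 17.8 ± 1.90 CPM in WT (SD, n = 4 each; log2 fold change -7.76 ± 0.32, adjusted p = 5.85e-09). CYP705A9 had 3.25, 4.08, 3.52 and 2.63 CPM in rdd, against 0, 0, 0.0827 and 0.0823 CPM in WT (log2 fold change 5.97 ± 0.61, adjusted p = 9.88e-05), and AT2G40960 averaged 4.47 ± 0.432 CPM in rdd and 26.2 ± 0.811 CPM in WT (SD, n = 4 each; log2 fold change -2.54 ± 0.13, adjusted p = 4.41e-08). For these 4 genes drdd and rdd libraries were close in level, whether DME was mutant or not. By contrast, PERK13 was at 0.274 ± 0.256 CPM in rdd and 0.180 ± 0.032 CPM in WT (SD, n = 4 each; log2 fold change 0.41 ± 0.99, adjusted p = 0.862), although the test of the difference between its changes did not pass (7.24 ± 1.49, adjusted p = 0.105).

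That difference, drdd minus dme set against rdd minus WT, was called for 20 genes (0.108%; 6 positive, 14 negative; 1788 at an unadjusted p under 0.05). Of these 18 were also called in drdd against dme. The count was 8 without dme B, 6 without drdd C and 46 without drdd D. The clearest was CYP706A6, which stood at 224, 148, 190.1 and 204 CPM in rdd, against 122, 185, 145 and 212 CPM in WT (log2 fold change 0.21 ± 0.20, adjusted p = 0.615). Only drdd was low, and the difference of the changes was -5.73 ± 0.33, adjusted p = 9.57e-07. AT5G22860, for a serine carboxypeptidase, had 0.257, 0.0983 and 0.688 CPM in drdd, against 9.19, 15.7, 14.9 and 16.6 CPM in dme (log2 fold change -5.36 ± 0.43, adjusted p = 7.45e-06), with 11.4, 6.17, 10.5 and 10.99 CPM in rdd, against 13.5, 18.5, 15.2 and 10.95 CPM in WT (log2 fold change -0.57 ± 0.27, adjusted p = 0.326). Its difference was -4.80 ± 0.51, adjusted p = 0.0014.

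Further genes were low in drdd and not called lower in rdd against WT. EXPA8 had 51.6, 45.5, 43.2 and 79.2 CPM in rdd, against 34.8, 76.03, 51.4 and 57.97 CPM in WT (log2 fold change 0.00 ± 0.32, adjusted p = 1; difference -3.13 ± 0.51, adjusted p = 0.0288). The pseudogene AT4G01490 had 0.0513, 0.393 and 0.688 CPM in drdd, against 9.70, 9.40, 7.45 and 13.9 CPM in dme, and averaged 4.38 ± 0.555 CPM in rdd and 8.69 ± 3.01 CPM in WT (SD, n = 4 each; difference -3.92 ± 0.62, adjusted p = 0.0221). AGP2, for an arabinogalactan cell wall protein, had 1.03, 0.197 and 0.0983 CPM in drdd, against 3.50, 8.17, 4.83 and 3.79 CPM in dme (log2 fold change -3.29 ± 0.50, adjusted p = 0.00297; -5.03 without drdd B), against a higher average in rdd than in WT, 8.22 ± 1.02 CPM in rdd and 4.03 ± 0.374 CPM in WT (SD, n = 4 each; log2 fold change 1.03 ± 0.38, adjusted p = 0.212; difference -4.32 ± 0.62, adjusted p = 0.0139). AMP1, a peptidase gene that affects meristem size, was chosen after its values were seen as the 1 gene called in opposite directions. It had 4.47, 6.69 and 5.41 CPM in drdd, against 13.5, 12.8, 11.4 and 11.9 CPM in dme (log2 fold change -1.18 ± 0.16, adjusted p = 0.00161) and 17.3, 22.8, 25.8 and 24.6 CPM in rdd, against 14.02, 14.6, 12.2 and 13.8 CPM in WT (log2 fold change 0.73 ± 0.14, adjusted p = 0.0231), with a difference of -1.91 ± 0.22, adjusted p = 0.00229.

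Among the positive differences, SAT32, a gene for salt tolerance, had 58.4, 72.7 and 52.98 CPM in drdd, against 24.7, 23.9, 29.7 and 32.9 CPM in dme (log2 fold change 1.14 ± 0.13, adjusted p = 0.000197), but 58.2, 53.2, 60.4 and 56.6 CPM in rdd, against 58.9, 55.4, 63.1 and 52.4 CPM in WT (log2 fold change -0.01 ± 0.12, adjusted p = 0.98). Here dme alone was low, and the ranges of drdd, rdd and WT overlapped (difference 1.15 ± 0.18, adjusted p = 0.0192). CAT3, for catalase (AT1G20620), had 1562, 1269.8 and 1341 CPM in drdd, against 749, 700.3, 386 and 726 CPM in dme (log2 fold change 1.12 ± 0.20, adjusted p = 0.0108), a call lost without drdd B (adjusted p = 0.0564), and averaged 892 ± 149 CPM in rdd and 1324 ± 152 CPM in WT (SD, n = 4 each; difference 1.69 ± 0.28, adjusted p = 0.0258). AOC4 and AT1G06640, for an oxygenase, were instead high in drdd alone. AT1G06640 had 58.5, 54.5 and 47.3 CPM in drdd, against 33.03, 28.2, 28.2 and 29.8 CPM in dme (log2 fold change 0.84 ± 0.11, adjusted p = 0.00119) and averaged 28.4 ± 1.39 CPM in rdd and 32.3 ± 4.54 CPM in WT (difference 1.03 ± 0.16, adjusted p = 0.0192).

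The other genes of this kind differed in rdd against WT. ENT6, a nucleoside transporter gene, had 7.34, 4.13 and 5.31 CPM in drdd, against 3.86, 4.09, 3.47 and 8.43 CPM in dme, not called (log2 fold change 0.18 ± 0.31, adjusted p = 0.819), but 0.361, 0.209, 0.264 and 0.215 CPM in rdd, against 2.76, 3.65, 3.22 and 3.87 CPM in WT (log2 fold change -3.66 ± 0.37, adjusted p = 9.88e-05; difference 3.84 ± 0.48, adjusted p = 0.00441). MAF5 averaged 41.7 ± 2.67 CPM in rdd and 3.43 ± 2.01 CPM in WT (log2 fold change 3.61 ± 0.33, adjusted p = 5.35e-05), a rise that drdd against dme did not show to the same size (difference -3.03 ± 0.45, adjusted p = 0.0192). AT2G33830 fell in both, at 10.6 ± 2.47 CPM in rdd and 162 ± 41.7 CPM in WT (SD, n = 4 each; log2 fold change -3.92 ± 0.25, adjusted p = 9.05e-07), and by more in drdd against dme (difference -3.35 ± 0.41, adjusted p = 0.00441).

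**Figure D3:**
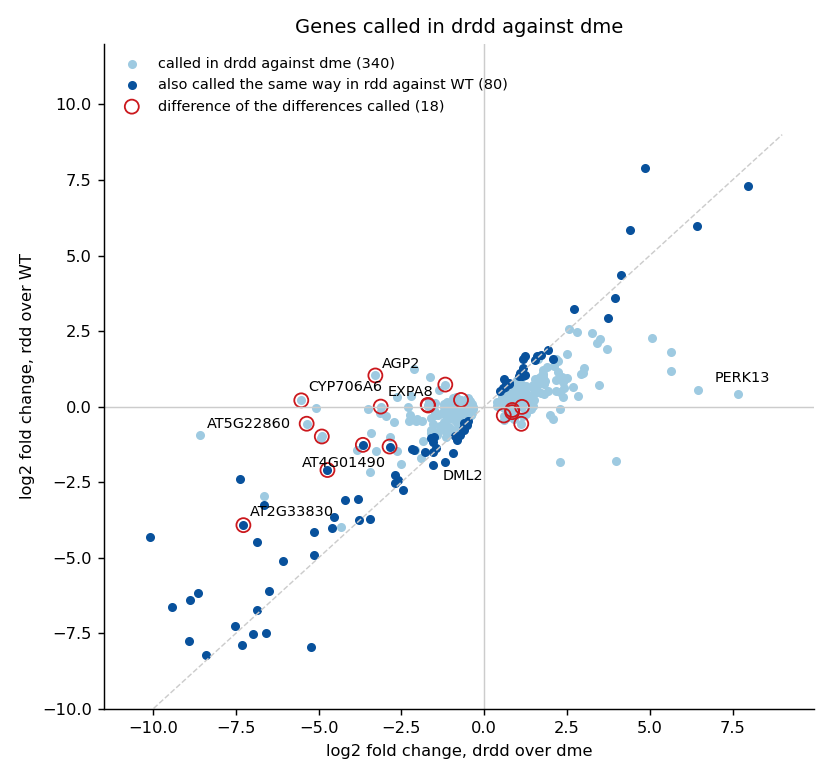
Log2 fold change of drdd over dme (x) and of rdd over WT (y) for the 420 called genes; the dashed line marks equal changes, and fitted changes of genes with no count in a group depend on the prior count. The 80 genes called the same way in both have the same sign on both axes, some with unequal changes, such as AT2G33830 (-7.27 and -3.92). CYP706A6 (-5.53 and 0.21) is among the ringed genes, where the difference was called.

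The share of genes called differed between chromosomes. On chromosome 2, which carries ROS1, 105 of 2807 tested genes were called (3.74%), on chromosome 3, which carries DML2, 78 of 3692 (2.11%), and on chromosome 4, which carries DML3, 73 of 2849 (2.56%). Chromosome 1 had 81 of 4891 (1.66%) and chromosome 5, which carries DME, 83 of 4310 (1.93%). Within 2 Mb of ROS1, DML2 or DML3 the share was 3.21% (81 of 2524), against 2.11% (339 of 16074) farther away, and within 1 Mb it was 4.37%. By gene it was 4.33% around ROS1, 3.39% around DML2, 1.92% around DML3 and, for comparison, 1.94% around DME. The highest share in a bin of 1 Mb with at least 20 tested genes near ROS1, 8.97%, was outside this window, more than 5 Mb from the gene.

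Of the 80 genes shared with rdd against WT, 64 (80.0%) lay on chromosomes 2 and 3, as did 119 of the 340 other calls (35%) and 34.9% of all tested genes. Among the genes named by rule, AT2G34655, AT2G32160, AT2G33830, AT2G40960, AGO6, RCA and EXPA8 lie within 2 Mb of ROS1, and AT3G07260, AT3G09450, RABC2b, AT3G09160, RLP34 and ESM1 within 2 Mb of DML2. POLAR lies within 2 Mb of DML3. Genes that were added after their values were seen were not placed by distance. Of these, AT2G32170 is the next tested gene to AT2G32160. GOX1 and GOX2 are on chromosome 3 and follow ESM1 in locus number. DNA linked to a mutant allele travels with it through crosses, and its effect and that of losing the gene cannot be told apart for these genes. How far linked DNA reaches was not tested, so genes farther off on these chromosomes are not free of this limit. On chromosome 2 they include AT2G23330, AT2G24755, AT2G22821, AT2G21860, AT2G23672, AT2G21045 and CYP705A9. Of the called genes, 55 (13.1%) had another called gene as the next tested gene on the chromosome, as against 4.25% of the tested genes that were not called. They formed 26 runs of 2 or 3 genes, 19 of them in 1 direction, and genes that were not tested may lie within a run.

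**Figure D4:**
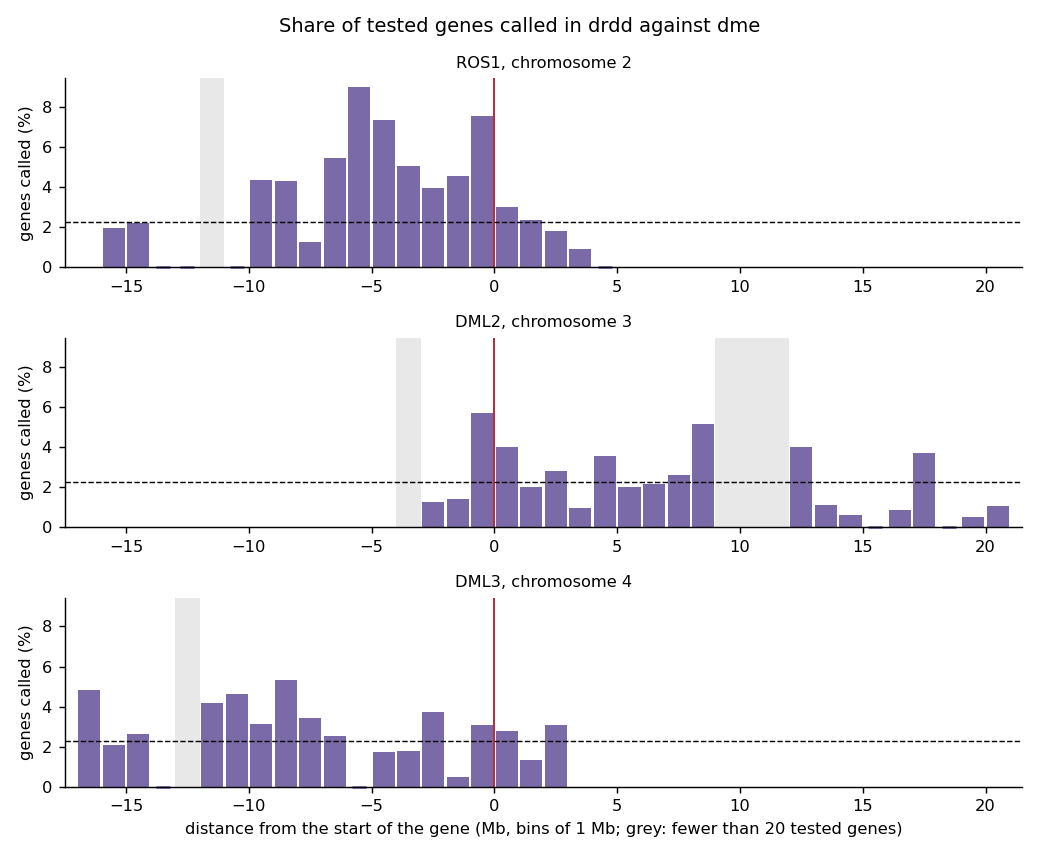
Percent of tested genes called in drdd against dme, in bins of 1 Mb by distance from ROS1, DML2 and DML3; the dashed line is the 2.26% of all tested genes and grey bins hold fewer than 20 tested genes. On chromosome 2 the share is 7.54% in the bin to the left of ROS1 and 8.97% in a bin farther left.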

How the data were processed

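Per the labels, each library has a deposited table of HTSeq counts, made by the authors, with 1 value per gene. The submitters' processing notes name FastQC, Trim Galore, STAR, HTSeq and also DESeq2. Versions, build, annotation and strandedness: not given in the sources used here. Reads of overlapping or antisense genes therefore cannot be told apart. The 5 summary lines of each table were dropped before library sizes were taken; reads without a gene were 1.54% to 1.79% and ambiguous reads 0.117% to 0.176% in the 7 libraries. The 4 deposited DESeq2 tables hold other comparisons and were not used.

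Counts of all 15 libraries were fitted as group means in edgeR 4.0.16 (R 4.3.3; filterByExpr, minimum count 10, 18598 of 37336 genes; TMM factors 0.953 to 1.09; robust quasi-likelihood test, 11 residual degrees of freedom, biological coefficient of variation 0.266). A gene counted as called where its p, adjusted by Benjamini-Hochberg over all tested genes, was under 0.05. The SE was derived from the fold change and its test statistic. For a group at 0, bounds set 3 counts in that group as the floor. Bounds and counting intervals (exact, 95%) cover counting error only. The procedure was run on simulated data with large changes and libraries that varied independently. That run does not cover small changes or libraries that stand apart, as drdd C and dme C did. Names, products and order came from RefSeq TAIR10.1 (37051 identifiers matched); no coordinates are printed.

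Members and gene lists were chosen with earlier results of these data known. Genes were named by rule: the 4 demethylases, FLC and MAF5; the 12 largest rises and 12 largest falls among called genes without overlap and with at least 1 CPM; the 6 lowest adjusted p-values of at least 20 CPM; up to 4 called members of each of 32 lists; and the 4 largest interactions in each direction. Members of lists that were not called, AMP1, MRU1, AT2G32170, BASL, GOX1 and GOX2 were added after their values were seen. Alternatives were DESeq2 1.42.0, other scaling and filters, the 7 libraries alone, a replicate block and each library left out.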

Additional observations from a re-analysis of the deposited data

Results flagged for a closer look

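In the dme group of 4 libraries, 1 library stood far from the other 3 for 7 of the 68 named genes; chance gives about 1 in 20 such groups. dme C stood apart with 0.0847 CPM for CYP705A9, 1.78 CPM for ERL1 and 386 CPM for CAT3. The CYP705A9 value was 1 read, with no count in the other dme libraries, so any single read would stand apart and the chance share does not apply to it. dme D stood apart with 0.506 CPM for HFR1, 119 CPM for FAD8, 12.1 CPM for PIF4 and 8.43 CPM for ENT6. The drdd group of 3 libraries was not examined in this way.

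For 13 of the named genes the change in drdd against dme differed from that in rdd against WT by a test of the difference itself (edgeR), as it did for 20 of all 18598 tested genes (0.108%). Of the 13, 8 were named because their difference was among the largest called, so the count reflects the choice of genes. The difference was negative for CYP706A6 (-5.73), AT5G22860 (-4.80), AGP2 (-4.32), AT4G01490 (-3.92), AT2G33830 (-3.35), EXPA8 (-3.13), MAF5 (-3.03) and AT4G13495 (-1.54). It was positive for ENT6 (3.84), CAT3 (1.69), SAT32 (1.15), AT1G06640 (1.03) and AOC4 (0.96), all on the log2 scale. Adjusted p-values ran from 9.57e-07 for CYP706A6 to 0.0288 for EXPA8.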

How the results depend on the processing

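The 420 calls (171 higher, 249 lower), the 200 calls of rdd against WT, the 80 shared calls, the 20 interaction calls and the 3.21% called within 2 Mb of ROS1, DML2 or DML3 depended on the processing. In the same order, DESeq2 gave 992 calls (424 higher, 568 lower), 632, 186, 193 and 6.89%. Fitting the compared libraries alone gave 128 calls (48 higher, 80 lower), 42 shared and 1.27%. A replicate block by letter gave 225 calls (86 higher, 139 lower), 111, 51, 12 and 1.94%. Same-lettered libraries of drdd and dme correlated at -0.059 (B), 0.430 (C) and 0.163 (D) in their deviations from the group means. drdd C and drdd D correlated best with the dme library of their own letter, and drdd B with dme D (0.271). These values do not settle whether the letters pair the libraries. Without both dme C and drdd C, chosen after seeing the data, there were 95 calls (32 higher, 63 lower), 316, 51, 7 and 1.03%. With no filter on low counts the share within 2 Mb was 2.16%, and in a window of 1 Mb it was 4.37%. Leaving out 1 library of drdd or dme gave 127 to 488 calls (48 to 171 higher, 79 to 317 lower), 154 to 311 in rdd against WT, 52 to 89 shared, 6 to 46 interactions and 1.35% to 3.80%. The share near these genes was above the share farther away under each of the 14 alternatives (1.36 to 2.62 times, beside 1.52). Apart from fits with fewer libraries, the cause of these changes was not tested. Of 951 values of the 68 named genes, 728 kept their direction and side of the threshold, 220 lost the call, 3 gained one (ROS1 with DESeq2 and without dme B, FLC with DESeq2) and none reversed.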

Other observations

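Other calls were read by family, from words in the RefSeq product names, which were chosen with results known and carry no test. Of 109 tested genes of the S-adenosylmethionine-dependent methyltransferase superfamily 8 fell and none rose (7.34%, beside 2.26% of all tested genes; median 0.00). Besides AT2G32160 they include AT3G10200, at 0.565, 0.393 and 0.197 CPM in drdd, against 2.70, 3.51, 2.29 and 2.11 CPM in dme (log2 fold change -2.69 ± 0.42, adjusted p = 0.00379, edgeR), and AT3G61210, at 17.8, 16.1 and 23.3 CPM in drdd, against 56.00, 62.9, 49.5 and 80.5 CPM in dme (log2 fold change -1.71 ± 0.19, adjusted p = 0.000167). In both genes every drdd library lay below every dme library. Both were called under each of the 14 alternatives. AT2G32160 lies within 2 Mb of ROS1, and AT2G32170, another of the 8, is the next tested gene to it. By locus number AT3G10200 lies between DML2 and RLP34, which is within 2 Mb of DML2. The limit of linked DNA given above therefore applies to AT2G32160, AT2G32170 and AT3G10200.

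Of 116 cytochrome P450 genes 2 rose and 2 fell (3.45%), and of 85 UDP-glycosyltransferase genes 2 rose and 2 fell (4.71%). UGT84A4, a glucosyltransferase, had 0.565, 0.197 and 1.08 CPM in drdd, against 4.16, 4.09, 4.40 and 5.14 CPM in dme (log2 fold change -2.85 ± 0.58, adjusted p = 0.0211), not called without drdd B or drdd C (adjusted p up to 0.103). MES7 and MES8, genes for methylesterases on chromosome 2 with MES19 and MES4 between them, went opposite ways. MES7 had 17.3, 13.96 and 12.8 CPM in drdd, against 4.45, 4.50, 1.95 and 4.80 CPM in dme (log2 fold change 1.90 ± 0.37, adjusted p = 0.0173). MES8 had 0.411, 0.590 and 0.295 CPM in drdd, against 2.19, 1.88, 1.86 and 1.69 CPM in dme (log2 fold change -2.12 ± 0.51, adjusted p = 0.0456). The call of MES7 was lost without drdd B or drdd C (adjusted p up to 0.0775) and that of MES8 without dme A, dme B, dme C, dme D, drdd B, drdd C or drdd D (adjusted p up to 0.151). Called were 3 of 312 ribosomal protein genes (0.962%) and 1 of 279 pentatricopeptide repeat genes (0.358%).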
